A study of Mus musculus with 12 samples.

Results

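Imprinted genes are transcribed mainly from the copy inherited from 1 parent, and 36 such genes of the mouse, in 20 domains on 11 chromosomes, were followed through a list of accessible chromatin regions from ES cells. A region was taken when it overlapped the body of 1 of these genes in the GENCODE M21 annotation of GRCm38 (mm10) or the 20 kb to either side of it, and it was assigned to the domain of that gene. This gave 303 of the 170548 regions in the list, within 26 merged windows of 3.096 Mb. All 36 genes were found in the annotation, 30 of them protein-coding and 6 long non-coding. ATAC-seq, in which a transposase inserts sequencing adapters into accessible DNA, was performed on 12 libraries, in 6 groups with 2 replicates each. Of these groups, 4 (8 libraries) were 2TS22C cells, in which a Tet-Off promoter drives Sox2, so that doxycycline (dox) shuts it down. They were SOX2 ON (untreated) and SOX2 OFF (dox at 1 µg/ml), each at 26 hr and at 40 hr. The other groups (4 libraries) were ZHBTc4 cells, in which a Tet-Off promoter drives Pou5f1, the gene of OCT4. They were OCT4 ON (untreated) and OCT4 OFF (dox at 1 µg/ml for 24 hr). All cells were mouse ES cells grown in serum with LIF and the inhibitors CHIR99021 and PD184352, and each transgene is carried by a single line.

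The list gives the start and end of each merged peak and no height, read number or value per sample. It pools ON and OFF cells of both lines, so no comparison of treatments was made, and the sequencing depth behind a region is unknown. A region therefore says that a peak was called there in at least 1 of the merged experiments, and the lack of one says that no peak was called, which is not a measurement of closed chromatin. The reads of the maternal and the paternal copy are not told apart, and the identity of the cells could not be checked against marker genes from positions alone. All intervals given with shares are 95% Wilson intervals for counting over regions, which are not replicates of a condition.

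As background, most imprinted domains hold a control region where DNA methylation was laid down in only 1 of the parental germlines and is kept in the embryo through the wave of demethylation after fertilization. The zinc finger protein ZFP57 binds the methylated copy at a short hexamer and recruits TRIM28 and SETDB1, whereas proteins such as CTCF, an insulator protein, bind the unmethylated copy at some of these elements. Most control regions are methylated on the maternal copy and coincide with a promoter. A few, including those upstream of H19, Meg3 and Rasgrf1, are methylated on the paternal copy and lie between genes.

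Control positions were defined from annotated transcription start sites (TSSs). For the paternally methylated elements they were 3 windows upstream of a gene start. For the maternally methylated ones they were 14 promoters, within 1 kb of a TSS of the principal transcripts, or of any transcript where no principal one is marked. Positions for Grb10, Inpp5f and Zdbf2 were left out, since they lie at alternative or distant starts that a gene name does not fix. Sequences of regions at the control positions are shown first, since they carry the factor sites that the later counts are based on. They were read from the plus strand of GRCm38 (mm10). The first stretches are from the regions upstream of H19. Capitals mark GGNGGCAG on either strand, a core of the known CTCF sites in this element.
H19 upstream control region (chr7:142580254-142580553): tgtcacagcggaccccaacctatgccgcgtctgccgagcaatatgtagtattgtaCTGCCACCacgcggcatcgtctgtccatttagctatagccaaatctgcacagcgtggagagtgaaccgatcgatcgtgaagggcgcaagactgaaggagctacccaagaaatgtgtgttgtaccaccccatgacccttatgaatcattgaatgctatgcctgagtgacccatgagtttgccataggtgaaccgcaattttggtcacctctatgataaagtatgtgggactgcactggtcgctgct
H19 upstream control region (chr7:142581762-142582002): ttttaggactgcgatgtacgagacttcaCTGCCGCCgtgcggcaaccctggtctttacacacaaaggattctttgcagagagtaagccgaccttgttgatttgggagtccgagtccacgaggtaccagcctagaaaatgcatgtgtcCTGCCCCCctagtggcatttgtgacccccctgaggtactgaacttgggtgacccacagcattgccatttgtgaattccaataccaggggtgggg

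The following stretches hold the hexamer of ZFP57, TGCCGC, which is capitalised on either strand. The first is a whole region between Dlk1 and Meg3, the second is the densest part of the region upstream of Rasgrf1, and the others are parts of regions at maternally methylated promoters, chosen outside annotated untranslated sequence. They are shown because each holds at least 2 hexamers.
Dlk1-Meg3 intergenic control region (chr12:109528308-109528462): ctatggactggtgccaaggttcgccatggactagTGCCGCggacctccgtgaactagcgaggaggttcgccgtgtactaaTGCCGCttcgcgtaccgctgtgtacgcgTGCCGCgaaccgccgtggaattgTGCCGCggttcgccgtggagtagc
Rasgrf1 upstream control region (chr9:89879598-89879897): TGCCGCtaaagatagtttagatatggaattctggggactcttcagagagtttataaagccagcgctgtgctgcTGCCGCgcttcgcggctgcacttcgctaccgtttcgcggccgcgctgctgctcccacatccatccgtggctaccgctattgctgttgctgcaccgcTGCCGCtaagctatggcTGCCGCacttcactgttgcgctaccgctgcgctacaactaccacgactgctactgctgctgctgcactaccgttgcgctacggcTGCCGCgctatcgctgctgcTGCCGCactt
Snrpn promoter (chr7:60004285-60004524): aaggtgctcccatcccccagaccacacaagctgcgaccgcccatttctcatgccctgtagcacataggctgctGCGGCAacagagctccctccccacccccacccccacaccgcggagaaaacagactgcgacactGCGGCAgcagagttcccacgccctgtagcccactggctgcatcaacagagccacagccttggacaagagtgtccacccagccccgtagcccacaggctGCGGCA
Mest promoter (chr6:30737574-30737813): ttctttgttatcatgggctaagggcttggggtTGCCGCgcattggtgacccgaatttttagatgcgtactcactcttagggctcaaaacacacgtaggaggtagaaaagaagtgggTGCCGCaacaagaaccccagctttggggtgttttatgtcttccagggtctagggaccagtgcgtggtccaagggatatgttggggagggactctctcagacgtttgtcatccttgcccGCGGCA
Peg3 promoter (chr7:6729227-6729466): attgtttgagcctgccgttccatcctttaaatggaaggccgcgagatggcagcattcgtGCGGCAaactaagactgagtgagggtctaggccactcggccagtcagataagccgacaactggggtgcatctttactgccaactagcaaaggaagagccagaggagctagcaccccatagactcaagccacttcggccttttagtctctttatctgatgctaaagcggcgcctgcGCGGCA
Plagl1 promoter (chr10:13091025-13091264): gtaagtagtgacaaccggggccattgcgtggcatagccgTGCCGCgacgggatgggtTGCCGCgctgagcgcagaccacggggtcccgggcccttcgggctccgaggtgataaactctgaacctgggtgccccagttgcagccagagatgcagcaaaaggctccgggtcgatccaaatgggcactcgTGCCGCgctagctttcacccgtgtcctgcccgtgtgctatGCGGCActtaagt
Airn promoter (chr17:12742193-12742432): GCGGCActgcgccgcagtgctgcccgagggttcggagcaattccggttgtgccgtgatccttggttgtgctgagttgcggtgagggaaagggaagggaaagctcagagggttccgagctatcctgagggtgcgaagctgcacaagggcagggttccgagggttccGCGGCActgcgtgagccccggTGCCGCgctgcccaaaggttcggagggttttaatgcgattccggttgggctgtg

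All 17 control positions held at least 1 region of the list, with 28 regions in all. Regions are common at such positions. A TSS of the principal transcripts had a region within 1 kb in 71.7% of protein-coding genes, and windows placed like those upstream of H19 (2 to 5 kb), Meg3 (10 to 16 kb) and Rasgrf1 (25 to 35 kb) held one in 22.4%, 48.2% and 61.6% of protein-coding genes. Of the 28 regions, 26 lay in the gene windows, and the 2 upstream of Rasgrf1 lay beyond the 20 kb flank. Each of the 3 upstream windows held more than 1 region, and 9 of the 14 promoters held exactly 1. These numbers cannot be compared, because the upstream windows spanned 3001, 6001 and 10001 bp and a promoter with 1 TSS spanned 2001 bp. Whether every region of an upstream window belongs to the methylated element is not known.

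Upstream of H19, whose non-coding transcript comes from the maternal copy, the control element is known to insulate the maternal Igf2 gene, a fetal growth factor, from enhancers on the far side of H19. Regions of 679 bp (chr7:142580065-142580743) and 241 bp (chr7:142581762-142582002) were centered 2261 bp and 3739 bp before the H19 start. The window from 2 to 5 kb upstream held 5 matches to GGNGGCAG, 3 of them inside these regions. The 2 others lay just outside, at chr7:142580764-142580771, past the end of the first region, and at chr7:142582034-142582041, past the end of the second. Of the 5 TGCCGC matches in the same window, 4 lay inside a region (the first region as a whole, which starts closer to H19 than the window does, holds 3 and the second 2). No region was listed within 1 kb of any of the 7 annotated H19 TSSs. The other region of the H19 window, 136 bp wide (chr7:142565339-142565474), lay beyond the end of the gene. Igf2 itself had no region within 1 kb of its annotated gene start, but a 2434 bp region (chr7:142658736-142661169) covered internal TSSs, with CpG dinucleotides at 0.736 of the number expected from base composition.

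Between Dlk1, a Notch-like inhibitor of differentiation, and Meg3, a non-coding RNA, the window from 10 to 16 kb before the Meg3 start held 4 regions of 166, 675, 155 and 334 bp. The narrowest, chr12:109528308-109528462, is the one printed above. It carried 4 of the 10 hexamers of the window, and its CpG dinucleotides were at 1.36 of expectation, the highest among the 28 control regions. The 675 bp neighbor (chr12:109527341-109528015) held 1 hexamer, and the 2 others held none. Upstream of Rasgrf1, which encodes an exchange factor for RAS, a 762 bp region (chr9:89879456-89880217) was centered 30073 bp before the gene start and held 6 of the 9 hexamers of its 10 kb window. A further region of 320 bp (chr9:89881825-89882144) held none.

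At the maternally methylated promoters, the widest control region was 2512 bp (chr7:6727246-6729757) in an intron of Peg3, a zinc finger gene, and held 5 hexamers. It was separate from a 353 bp region (chr7:6730209-6730561) over the start of Peg3, which held none and ended 17 bp short of the Usp29 start on the other strand. The Snrpn promoter, which lies inside the annotated gene and marks the start of the transcript for a small nuclear ribonucleoprotein, had a single region of 2405 bp (chr7:60002807-60005211) with 10 hexamers. Mest, a hydrolase gene, had the most, with 11 in a region of 1690 bp (chr6:30736840-30738529). Plagl1 (a zinc finger growth regulator) and Nnat (neuronatin) each held 6, in regions of 1206 bp and 1009 bp, and Nap1l5, a nucleosome assembly protein gene, held 5 in 825 bp. The promoter of Airn, the antisense RNA that silences Igf2r in cis, held regions of 377, 938 and 652 bp with 0, 3 and 4 hexamers. That of Kcnq1ot1, the antisense RNA of the Kcnq1 domain, held 2 in a region of 1423 bp (chr7:143295682-143297104).

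Among the others, the windows around 3 annotated Nespas TSSs in the Gnas domain held regions of 1259 bp and 1869 bp, with 2 and 5 hexamers. The 1259 bp region also lies over the annotated Gnas start. The maternal label of the Nespas position was not checked for it, so it need not be part of the maternally methylated element. The 1128 bp region at Mcts2, a retrogene inside H13, held 3. Peg10, a gene derived from a retrotransposon, had regions of 593 bp and 1018 bp with 1 and 2 hexamers. Impact, a regulator of translation, had regions of 320 bp and 1875 bp at its internal start, with 0 and 5 hexamers. Hexamers were counted over whole regions. The 1875 bp region reached only into the edge of the Impact window, which itself held 0 hexamers. The element at Slc38a4, an amino acid transporter gene, held 1 hexamer in 1889 bp. Zrsr1, a retrogene for a splicing factor, held 0 in a region of 1525 bp, although CpG dinucleotides were at 0.786 of expectation there.

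**Figure D1:**
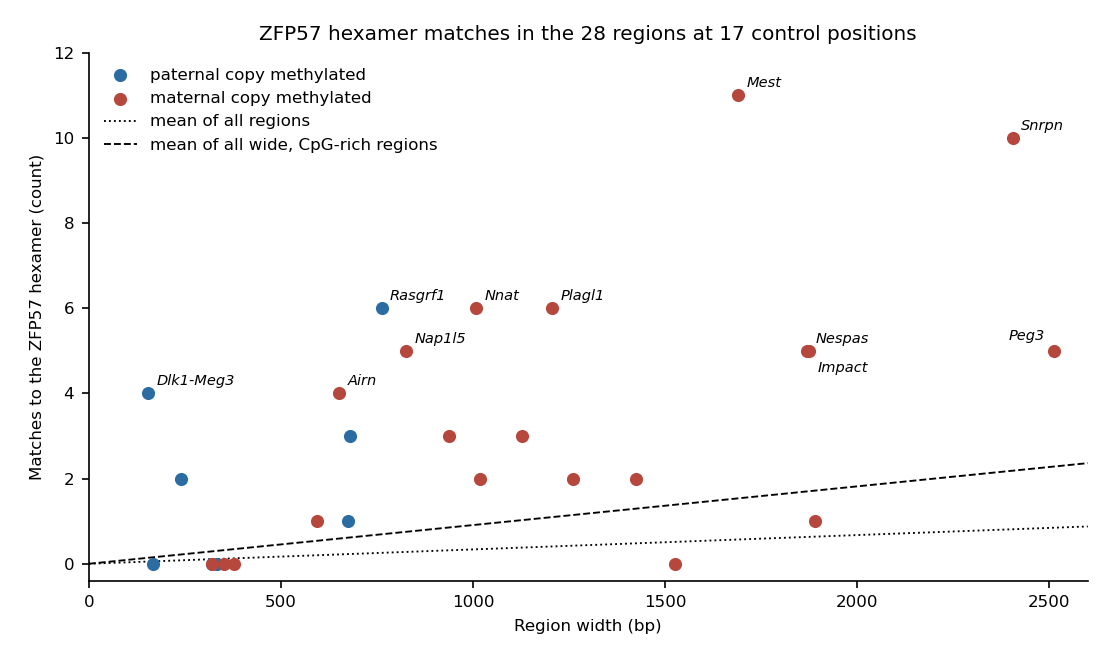
Number of matches to the ZFP57 hexamer (y axis, count) against region width (x axis, bp) for the 28 regions at 17 control positions, 1 point per region. Colors give the parental copy assigned as methylated to the control position, which was not checked for each region. The dotted line is the mean rate of all regions (0.337 per kb) and the dashed line that of all regions of at least 500 bp with CpG observed/expected of at least 0.6 (0.909 per kb); Mest and Snrpn hold the highest counts, and Zrsr1 lies at 0.

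A TGCCGC match was found in 21 of the 28 control regions (75%, interval 56.6 to 87.3%), at 3.09 matches per kb. In the whole list 11.8% of regions held one, at 0.337 per kb. Width and CpG content move with this count, as the control regions had a median width of 881.5 bp, against 379 bp over all regions. Among regions of at least 500 bp with CpG observed/expected of at least 0.6, 13 of 14 control regions held a match (92.9%, interval 68.5 to 98.7%), at 3.12 per kb, whereas 59.1% of the 13128 such regions in the list did, at 0.909 per kb. The 277 regions of the gene windows outside the defined control positions held the hexamer in 17% (interval 13 to 21.8%), at 0.503 per kb. They include regions at internal starts of Grb10 (1519 bp, chr11:12025410-12026928, 4 hexamers) and Inpp5f (1028 bp, chr7:128687700-128688727, 6 hexamers). The control positions of these genes and of Zdbf2 were left out, so the 277 may include regions at control elements. For comparison, the share was 14% in equally drawn windows of all protein-coding genes. It was 33.8% over all promoter-proximal regions, those centered within 1 kb of a TSS, and 7.24% over all distal regions, those centered farther away. The 277 mix both classes.

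Shares for the other motifs depended on which regions they were set beside. GGNGGCAG was found in 8 of 28 control regions (28.6%, interval 15.3 to 47.1%) and in 70 of the 303 regions of the gene windows (23.1%, interval 18.7 to 28.2%), against 19.2% of all regions. In equally drawn windows of all protein-coding genes, 21.6% of regions held it. Among regions of at least 500 bp with CpG observed/expected of at least 0.6 it was found in 3 of 14 control regions (21.4%, interval 7.57 to 47.6%), against 49.6% of all such regions. ATGGCGGC, a core of the sites of YY1, a zinc finger protein that binds several imprinted promoters, was found in 2 of 28 control regions (7.14%, interval 1.98 to 22.6%) and in 6 of 303 window regions (1.98%), against 1.6% of all regions. In the windows of all protein-coding genes, 2.01% of regions held it. Among the wide, CpG-rich regions it was found in 0 of 14 control regions (interval 0 to 21.5%), against 11.4% of all such regions. The control regions with ATGGCGGC were 1 each at the Airn and Nespas promoters. A GGNGGCAG match with C at its open base contains TGCCGC on the other strand, as at chr7:142581790-142581797 upstream of H19, so these 2 counts overlap. A match describes the letters of a region and does not show that a factor was bound.

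Promoter presence, a region within 1 kb of any annotated TSS, was found for 31 of the 36 genes (86.1%). Of the 30 protein-coding genes 28 had one (93.3%), while the share was 74.7% over the 21938 protein-coding genes of the annotation. Of the 6 non-coding genes 3 had one, Kcnq1ot1, Airn and Meg3, while the share was 44.1% over 10155 long non-coding genes. When only the annotated gene start was considered, 25 of 30 protein-coding genes (83.3%) and 2 of 6 non-coding genes had a region, against 70.1% and 42.4%. The 4 genes that lost theirs, Igf2, Meg3, Snrpn and Mest, all had their region at or within 1 kb of a start inside the gene. By the expressed copy, 21 of 23 genes expressed from the paternal copy and 9 of 12 expressed from the maternal copy had a region, and Gnas, which has promoters of both kinds, had one too. This difference was not tested, and 3 of the 5 genes with no region are the neighbors Rtl1, Rian and Mirg.

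**Figure D2:**
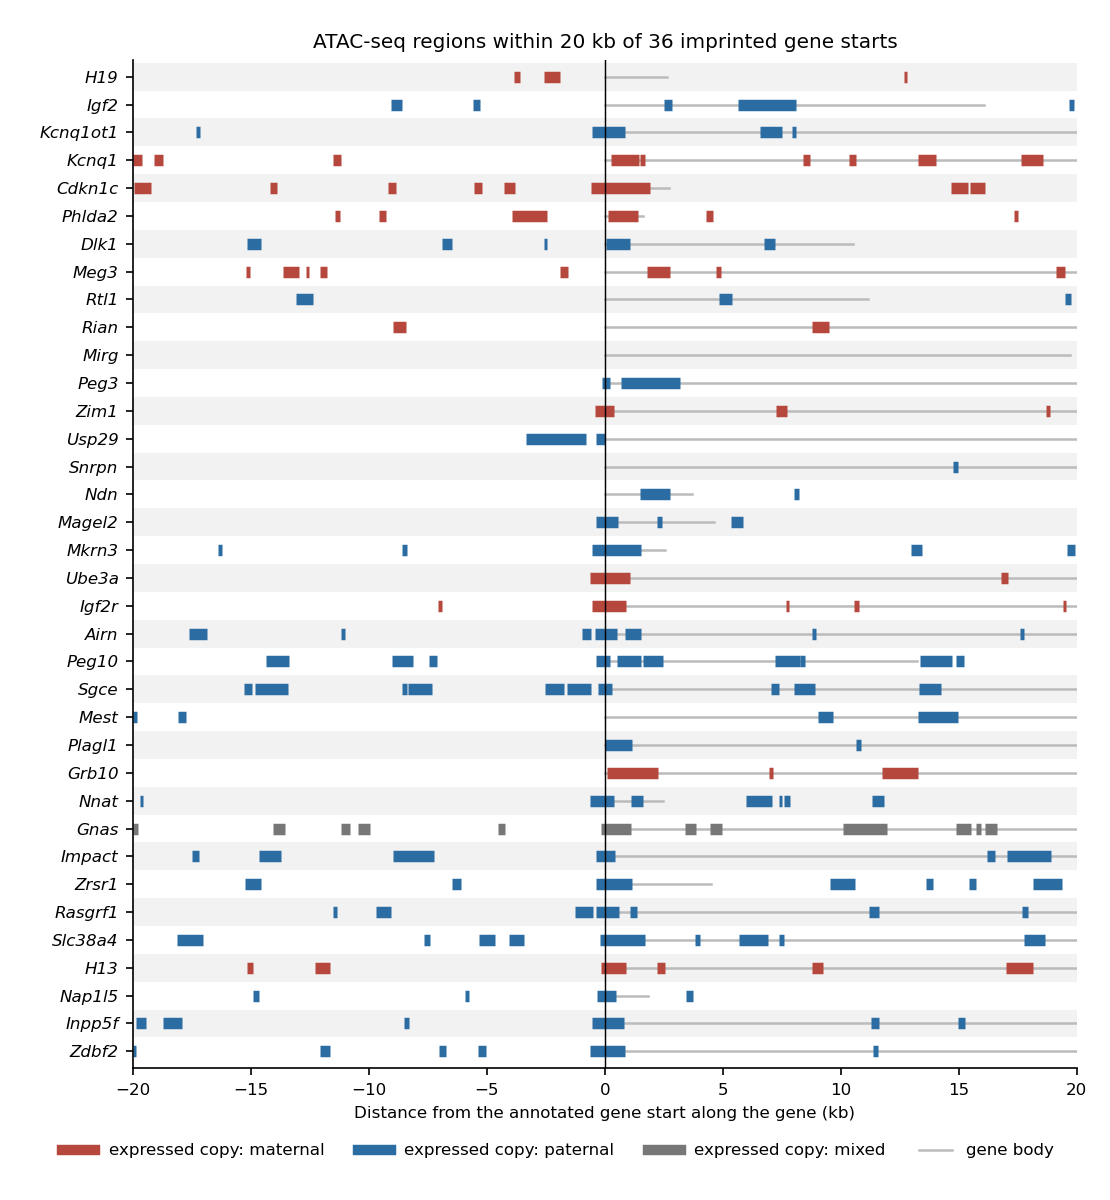
Regions of the list (thick bars) from 20 kb before to 20 kb after the annotated start of each of the 36 genes, with distance in kb along the direction of transcription on the x axis and 1 gene per row. Colors give the copy that is known to be expressed and thin grey lines give the gene body; H19 shows its regions upstream of an empty start, and Mirg shows none.

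Promoter presence went with the CpG content of the gene start. At 16 of the 36 gene starts, CpG dinucleotides in the surrounding 1 kb were at 0.6 of expectation or more, and 16 of these 16 had a region within 1 kb, as did 99.3% of such protein-coding genes. Of the 20 starts below 0.6, 11 had a region (55%), against 45.2% of such protein-coding genes. The median CpG observed/expected was 0.633 (0.284 to 0.981) at the 27 starts with a region and 0.204 (0.0606 to 0.519) at the 9 without.

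The genes without a promoter region were H19, Rtl1, Rian, Mirg and Ndn. For H19 the nearest region began 1922 bp from the gene start, in the control element. Rtl1, a gene derived from a retrotransposon, had a single region in its body, 552 bp wide (chr12:109594945-109595496) and 4834 bp from its start, where antisense microRNAs are annotated. Rian and Mirg are non-coding hosts of small RNAs that lie beyond Meg3. Rian had 1 region in its 57.78 kb body, 729 bp wide (chr12:109612710-109613438), and Mirg had 0, the nearest being a 531 bp region just past its end (chr12:109749770-109750300). After the Rian region no other region was listed for 81.4 kb, as far as chr12:109694878, a stretch of which 15.7% is soft-masked repeat. For Ndn, a gene of the MAGE family, a 1278 bp region (chr7:62348045-62349322) lay inside the gene, 1476 bp from the annotated GENCODE start. The start of Ndn in RefSeq, at position 62348277, lies inside that region, so that its missing promoter region depends on the annotation.

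Where a promoter region was present it was often wide. The widest promoter region of each of the 31 genes had a median width of 1355 bp (quartiles 1018 and 1882), compared with 1118 bp (868 and 1394) for the 16381 protein-coding genes with one. It was over 2 kb for 7 of the 31 genes (22.6%), compared with 3.87% of the protein-coding genes. These 7 genes shared 6 regions. Besides the regions at Igf2, Snrpn and Peg3 with Usp29, described above, they were at Cdkn1c (2516 bp, chr7:143459133-143461648), a cyclin-dependent kinase inhibitor, at Grb10 (2165 bp, chr11:12036415-12038579), an adaptor that restrains growth factor signaling, and at Mkrn3 (2063 bp, chr7:62418615-62420677), a makorin ring finger gene. Since peaks of all experiments were merged, a wide region can also be several overlapping peaks, and this was not tested. The regions at Snrpn and at Peg3 with Usp29 are control regions centered 1.04 and 1.92 kb from the nearest TSS. The widest region was taken over all TSSs of a gene, and the number of TSSs was not matched between the sets.

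In the Kcnq1 domain, where Kcnq1ot1 is expressed from the paternal copy and its targets from the maternal one, 43 regions were listed. Kcnq1, a potassium channel gene, had 25 regions across its 320.7 kb body and a 1213 bp region 239 bp into the gene. Phlda2, which restrains placental growth, had a 1281 bp region (chr7:143501738-143503018) that covered 79.8% of its 1.606 kb, and the Cdkn1c region covered 70.7% of that gene. The widest distal region, that is, one centered more than 1 kb from any TSS, was 1524 bp (chr7:143153690-143155213) in an intron of Kcnq1.

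In the Igf2r domain 25 regions were listed. Igf2r, the receptor that clears IGF2, had a 1430 bp region over its start (chr17:12768782-12770211), and 23 regions lay in the window of Airn, whose transcript overlaps it from the other strand. The widest distal region was 751 bp (chr17:12723674-12724424), in an intron. In the Peg3 domain 28 of the 35 regions were in the window of Usp29, a ubiquitin protease gene of 236.6 kb. The longest stretch without a region was 91.4 kb, of which 35.1% is soft-masked repeat. Zim1, a zinc finger gene expressed from the maternal copy in the same domain, had a 796 bp region over its start (chr7:6696071-6696866) with 1 hexamer.

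The Snrpn domain, the mouse counterpart of the human Prader-Willi and Angelman region, had the fewest regions for its size, 21 in 434.1 kb. Its 5 genes differed in their promoters. Magel2, another MAGE gene, and Mkrn3 had regions of 938 bp and 2063 bp over their starts. Ube3a, the ubiquitin ligase that is expressed from the maternal copy in neurons, had one of 1672 bp (chr7:59228121-59229792) over a CpG-rich start. Snrpn had none within 1 kb of its annotated gene start, 14763 bp away from the nearest region, and its promoter region lay at the internal start. The longest stretch without a region in this domain was 89.7 kb, of which 44.4% is soft-masked repeat.

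**Figure D3:**
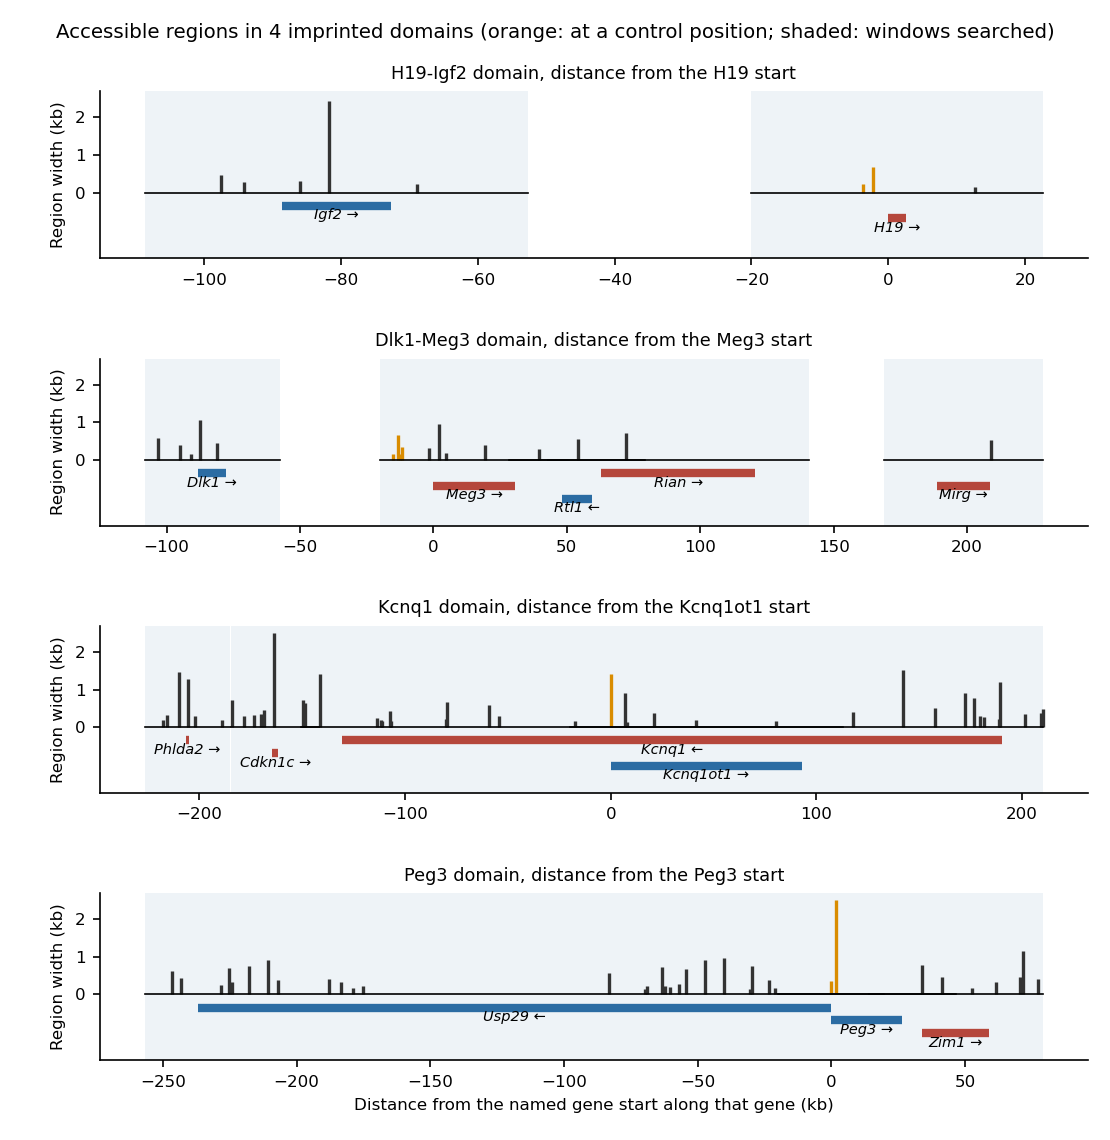
Regions in 4 imprinted domains, drawn as vertical lines at their centers with the height giving the width of the region (y axis, kb), against the distance from the named gene start along that gene (x axis, kb). Horizontal bars below are the genes, red for maternal and blue for paternal expression, arrows give their direction, shading gives the windows that were searched, and regions at control positions are orange; the stretches beyond the Rian region and in Usp29 are empty.

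Most of the genes not yet described at their starts had a region there. Dlk1 had a 1057 bp region 24 bp after its start. The region of Meg3, 959 bp wide (chr12:109542782-109543740), lay inside the gene within 1 kb of later TSSs, and another of 327 bp (chr12:109539100-109539426) lay 1575 bp before the gene start. Plagl1 had a 1152 bp region at its annotated start (chr10:13060486-13061637) with 0 hexamers, apart from the one with 6 at the internal start that carries the control element. Peg10 and Sgce, the latter encoding a sarcoglycan, are transcribed in opposite directions from 1 promoter and shared a 593 bp region (chr6:4746923-4747515), and a 1365 bp distal region (chr6:4760659-4762023) lay just past the end of Peg10. H13, a signal peptide peptidase gene, Inpp5f, an inositol phosphatase gene, and Zdbf2, a zinc finger gene, had regions of 1069, 1355 and 1475 bp over their starts. Rasgrf1 and Slc38a4 had 953 bp and 1889 bp. In the Gnas domain, which encodes the stimulatory G protein subunit and its alternative first exons, the annotated gene start had a region of 1259 bp (chr2:174284147-174285405), one of the 2 counted for Nespas, and the widest region near a later start was 1352 bp (chr2:174329594-174330945). A distal region of 610 bp (chr2:174299213-174299822) in an exon held 5 hexamers and 6 GGNGGCAG matches. The Impact gene start had a region of 782 bp with 0 hexamers, and the widest distal region of its window was 1711 bp, between genes.

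Over all windows the list held 97.9 regions per Mb, covering 5.59% of the sequence. The value was 64.4 per Mb and 3.19% over chromosomes 1 to 19, X and Y, and 85.1 per Mb and 4.42% over equally drawn windows of all protein-coding genes. Taken gene by gene, the median was 97 regions per Mb (quartiles 68.2 and 131) for the 36 genes, compared with 105 (54.6 and 159) for protein-coding genes, so that the median lay between the quartiles of other genes. Domains ranged from 48.4 per Mb at Snrpn, 61.6 at Mest and 62.7 at Dlk1-Meg3 to 165 at Nnat and 186 at Gnas. Of the 303 regions, 221 were distal (72.9%, interval 67.7 to 77.6%), compared with 82.7% of all regions and 77.9% of those in windows of protein-coding genes. Since the class was set by the center, 6 of the 221 reached within 1 kb of a TSS, among them the wide regions at Snrpn and Peg3, and the Snrpn region covered one. Of the distal regions, 56.1% were in introns, 30.8% between genes and 13.1% in exons. These shares were 46.6%, 47% and 6.47% over all distal regions of the list, and 63.5%, 27.3% and 9.15% in windows of protein-coding genes. The windows of the 39 Hox genes, another group of clustered developmental loci, held 231 regions per Mb, and 47.6% of them were distal.

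**Figure D4:**
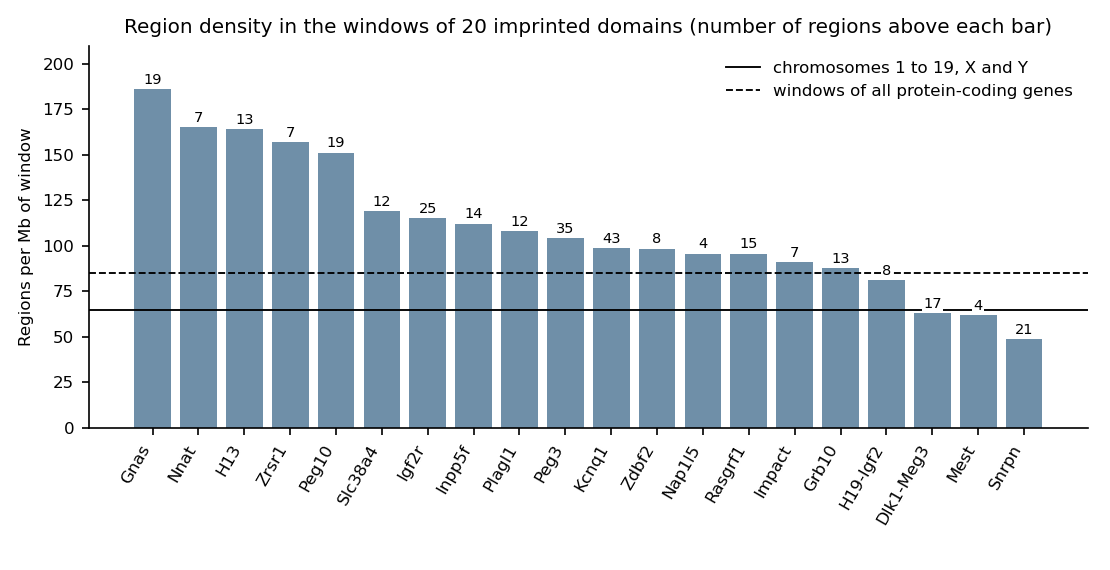
Regions per Mb of window (y axis) for the 20 imprinted domains (x axis), with the number of regions above each bar. The solid line is the density over chromosomes 1 to 19, X and Y (64.4 per Mb) and the dashed line that over windows of all protein-coding genes (85.1 per Mb); Gnas is highest and Snrpn lowest.

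Genes that keep or read imprints were examined in the same way. All 9 genes of a list of such factors had a region within 1 kb of a TSS, as did 74.7% of all protein-coding genes. They were Zfp57 and Zfp445, zinc finger proteins that bind methylated control regions, Trim28 and Setdb1, the corepressor and the histone methyltransferase they recruit, Dnmt1 and Uhrf1, which copy methylation after replication, Dppa3, which protects the maternal genome, and Ctcf and Yy1. The widest promoter regions ran from 816 bp at Dppa3 to 2186 bp at Trim28. Only Zfp57 had its region, 1230 bp wide, at a start other than the annotated gene start. Of 25 neighbors of the imprinted genes, 23 had a promoter region (92%). Most are protein-coding, for which the share is the same 74.7%, but Nespas, Zim2, Zim3 and the pseudogene Zfp264 are not. Over long non-coding genes the share was 44.1%. The exceptions were Ins2, an insulin gene next to Igf2, which had 7 regions in its window, and Slc22a2, a transporter gene next to Igf2r, which had 0 regions in its body or within 20 kb. Slc22a3, in the same cluster of transporters, had a 1242 bp region and 3 regions in its window.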

How the data were processed

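ATAC-seq libraries came from the mouse ES cell lines 2TS22C and ZHBTc4. The authors aligned reads to mm10 (GRCm38) with STAR 2.6.1c, removed duplicates with Picard, called peaks with MACS2 2.1.1.20160309 in its paired-end mode, and used BEDTools to merge the peak sets of both lines. The deposited table gives chromosome, first and last position (bp) of the merged regions, pooled over all samples; the number of columns for single samples is 0. The authors' read counting and limma tests are not part of the list, and its depth is unknown. For their analysis the authors also removed peaks above a size limit and peaks overlapping input peaks or blacklisted regions. The list holds a region of 58315 bp, so the size limit had not been applied to it. Whether the other filters had been applied is unknown, so shares over all regions may include artifact peaks.

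Positions are counted from 1 on GRCm38 (NCBI) with GENCODE M21. Regions were joined to gene bodies with 20 kb flanks and to TSSs within 1 kb, and motif letters were searched on both strands over the full region. CpG observed/expected was computed per region and over 1 kb around gene starts. Shares have Wilson 95% intervals; no test was made, because no group has values of its own. Functions were tested on simulated data. The members, the control positions, the motifs and the gene lists were chosen with earlier results of these data known. Every gene of the set is named, with its promoter and control regions and, by domain, the widest distal region where described. RefSeq TSSs were available for 29 of the 36 genes. Alternatives changed the TSS set, the distance, the flank, the smallest width, the joining of regions and the motif. Python 3.11.15, NumPy 2.4.6, pysam 0.24.0 and matplotlib 3.10.9 were used.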

Additional observations from a re-analysis of the deposited data

How the results depend on the processing

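Counts and densities were taken as moved beyond 1.5 times the reported value, and shares when outside their Wilson interval, which is wide for the 28 control regions. By these limits 17 of 23 alternative values did not move. Some of them could not have moved. A distance of 2 kb cannot lower a count, and neither 31 of 36 genes nor 17 of 17 control positions can rise beyond 1.5 times. Promoter presence, found for 31 genes, fell to 29 genes if a TSS itself had to be covered, which left out Meg3 and Usp29. It was 34 within 2 kb, which added H19, Mirg and Ndn, and 27 with 1 TSS per gene. With RefSeq TSSs, an alternative chosen after seeing the data, it was 27 of the 29 genes with such a start, Rian and Mirg being the others. The share was 72.9% over the 16522 protein-coding genes with RefSeq TSSs, whereas the 29 include non-coding genes. H19 and Rtl1, which had no region in the main count, have no RefSeq TSS and drop out here. Without the 20 kb flank the regions numbered 194 instead of 303, and 432 with a 50 kb flank. Their distal share, 72.9%, was 67.5% without the flank, 84.5% with 1 TSS per gene and 79.5% with the TSSs of protein-coding genes alone. The 82.7% of all regions was obtained with all TSSs. No share over all regions with the smaller TSS sets is given, so the 84.5% and the 79.5% cannot be set beside it. The share of window regions with TGCCGC, 22.1%, was 13.2% in the central 300 bp and 8.91% for TGCCGCG. In windows of all protein-coding genes these shares were 14%, 8.22% and 3.13%. For control regions both alternatives gave 57.1%, against 7.03% and 2.46% of all regions. Width and CpG content differ between these sets. Among regions of at least 500 bp with CpG observed/expected of at least 0.6, the alternatives gave 78.6% and 64.3% of 14 control regions. The shares over all such regions were 30.1% and 21.4%. No paired analysis was possible because peaks of all samples are pooled, and no replicate could be left out. The unknown depth limits what the lack of a region can show, and merged peaks limit the reading of widths.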
